A study of Mus musculus with 2 samples.

Results

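Single-exon antisense loci are stretches of the genome that long reads covered without a splice, classed as opposite an annotated gene and assigned to none. They were collected from the models of the Antisense class with 1 exon on chromosomes 1 to 19, merged where they overlapped on a strand across 2 libraries, and kept with at least 5 reads in each library. The rule kept 575 of 17670 such loci. Whole-series counts give 23390 unannotated antisense and intergenic loci, and 11 spliced antisense loci passed the same minimum. The members were chosen by their reads in both libraries, so those reads are described here with no test.

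The libraries are biological replicates 1 and 2 of a single group: adrenal gland of 14-day-old female B6CASTF1/J mice, the F1 cross of C57BL/6 and CAST parents, with no treatment or second genotype. In the labels, the tissue name of replicate 1 names 3 females and the tissue name of replicate 2 names a single one, although both library descriptions name 3 and the donor entry is the same. With 1 library from each tissue sample, the spread of animals and that of preparation cannot be told apart. Replicate 1 held 1143111 reads and replicate 2 held 991731, of which 1065570 and 946553 fell in annotated genes. Genes that mark the adrenal cortex were read in 17 of 17 cases, at a summed 71662 CPM (counts scaled to the reads in annotated genes of the library) in replicate 1 and 29346 CPM in replicate 2. Genes that mark hepatocytes were read in 12 of 12 cases, at 756 CPM in replicate 1 and 81784 CPM in replicate 2, and skeletal muscle genes in 7 of 7, at 61.9 and 1750 CPM. Replicate 2 stands apart from replicate 1, and from its tissue label, in these lists.

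Antisense RNAs can come from a promoter of their own, from a promoter that fires both ways, or from a neighbouring gene read past its end. Some act on the gene they oppose, through its chromatin, its splicing or the stability of its RNA, and many have no known role. A spliced read shows its strand by the bases at its splice sites, whereas a single-exon read has none, so its strand rests on how the cDNA ends were recognised. Primers for poly(A) tails can also bind runs of adenine inside an RNA, and such runs were therefore looked for at the ends of the loci.

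The bases at the 3′ ends of some named loci are shown first, since adenine runs were looked for there. Several of these loci lie outside last exons, where too few ends had known bases for a count, and are shown as single cases. All named loci with known bases and 16 or more adenines in the next 20 are shown, but only some of those with fewer. Among those left out are the loci at Acnat1 (10% adenine), Malat1 (20%), CT010467.1 (20%), Smad7 (25%), Matr3 (35%), BC005537 (40%) and Zkscan3 (45%). The lines therefore give no share of loci. Each line gives, 5′ to 3′ on the strand of the locus, its last 10 bases in lower case and the 20 genomic bases that follow in capitals, with mm10 positions. The bases were read from GENCODE M21 transcript sequences and RefSeq promoter windows (GRCm38.p6, the same build).
Actb locus (chr5:142903645-142903674, + strand): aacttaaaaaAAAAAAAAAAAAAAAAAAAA
2900097C17Rik locus (chr2:156391505-156391534, + strand): cacaaaatgtAAAAAAAAAAAAAAAAAAAA
Tacc1 locus (chr8:25158024-25158053, + strand): agattaaggcAAAAAAAAAAAAAAAAAAAA
Fdx1 locus (chr9:51945837-51945866, + strand): atgatgggtgAAAAAAAAAAAAAAAAAAAA
Slc39a1 locus (chr3:90253102-90253131, - strand): aaccctgtcaAAAAAAAAAAAAAAAAAAAA
Pitpnc1 locus (chr11:107212269-107212298, + strand): agaattctttAAAAAAAAAAAAAAAAAAAG
Brd2 locus (chr17:34116326-34116355, + strand): tgtgataatcCTAAAAAAAAAAAAAAAAAA
Neat1 locus (chr19:5829763-5829792, + strand): cccttctttcAAAAGGAAAGAAAAAAAAAA
Sdc4 locus (chr2:164425253-164425282, + strand): tctcattttcAAAAAACAAACAAAACATAA
Cdv3 locus (chr9:103355304-103355333, + strand): ttctttatccCTAAGGGAAAAGAAATGTAA
Tmem250-ps locus (chr2:26138374-26138403, + strand): ggtgggccctCACATGTCCACAAAGACCAT
Plin1 locus (chr7:79721155-79721184, + strand): agaaatccaaACAATCAATTGCTTTTATAG
Nfia locus (chr4:98111250-98111279, - strand): ggggtcaggtGGTCTGTCTGGAGGATGGTG
The first 5 of these loci are followed by 20 adenines out of 20 bases, the Pitpnc1 locus by 19, the Brd2 locus by 18, the Neat1 locus by 17 and the Sdc4 locus by 16. The Cdv3 locus is followed by 11, the Tmem250-ps locus by 8, the Plin1 locus by 7 and the Nfia locus by 2. The ends shown are those of the merged loci, and the model with most reads did not always end there. At the Sdc4 locus that model ended at base 164425134 in both libraries. In replicate 1 it ended at 5826970 at the Neat1 locus, 107211763 at the Pitpnc1 locus and 98111403 at the Nfia locus. In replicate 2 it ended as shown at the Neat1, Pitpnc1 and Nfia loci. At 2 further loci the adenines lie inside the locus, in capitals in the last 30 bases below.
Ptp4a2 locus (chr4:129839151-129839180, - strand): gaatacgcttgcaatttAAAAAAAAAAAAA
Dhrs3 locus (chr4:144893077-144893106, - strand): ggccagggacgAAAAAAAAAAAAAAAAAAA
The run holds 13 adenines at the Ptp4a2 locus and 19 at the Dhrs3 locus.

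The 575 loci held 15242 reads in replicate 1 and 9762 in replicate 2. This was 39.1% and 43.8% of all single-exon antisense reads, and 1.33% and 0.984% of all reads of the libraries. The median locus had 13 reads in replicate 1 and 8 in replicate 2, and 35 loci had 100 or more over both. With the minimum applied to replicate 1 alone there were 1373 loci, and with replicate 2 alone 699. A locus spanned 2338 bases at the median and 12311 at most. At the short end, 6 loci were under 100 bases and 5 were of a single base, 3 of these at an annotated exon boundary. In addition, 17 longer loci had a model of a single base as the leading one, that is the one with most reads, in at least 1 library. A single model made up the locus in 461 cases in replicate 1 and 496 in replicate 2. Locus reads had a Spearman correlation of 0.69 between the libraries, over 575 loci that both libraries had to hold.

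**Figure D1:**
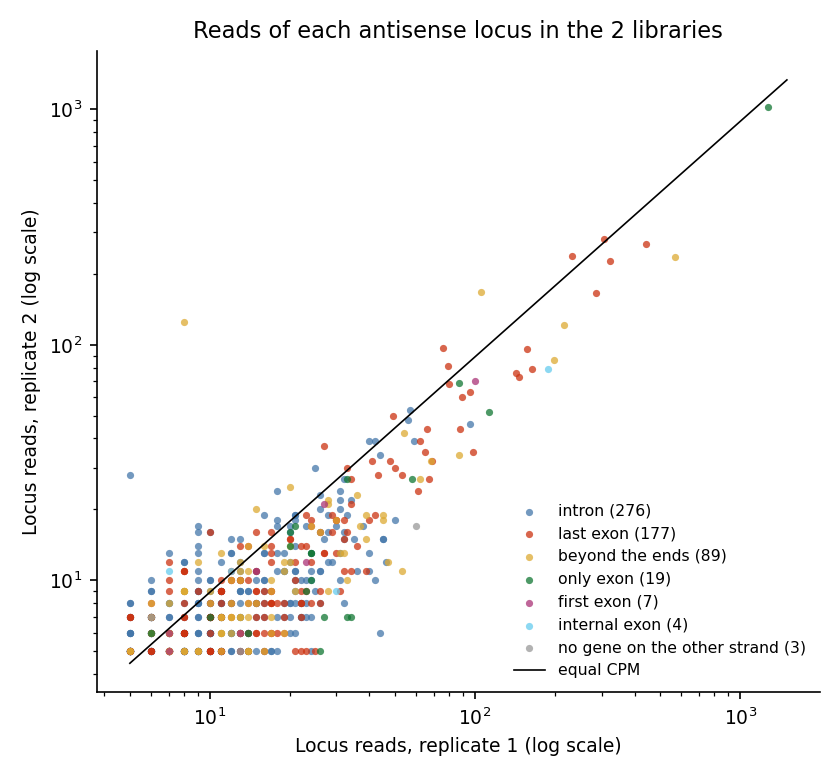
Reads of each of the 575 loci in replicate 1 (x axis, log scale) and replicate 2 (y axis, log scale), coloured by the part of the opposite gene that holds the locus, with a line at equal CPM. Most points lie near or below the line, and a few with more reads in replicate 2, the Acnat1 and Selenop loci among them, lie far above it.

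At the threshold, 122 loci had exactly 5 reads in the library with fewer and 186 loci missed it with 4. Just inside were loci opposite Arfgef1, 3110009E18Rik and Arl1, each with 5 reads in both libraries. Just outside were a locus opposite Luc7l3 with 20 reads in replicate 1 and 4 in replicate 2, one opposite Tbx3os1 with 19 and 4, and one in the last exon of Nfib with 18 and 4.

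Last exons, which hold most 3′ untranslated sequence, carried many of these loci. Of the 575, 177 (30.8%, exact 95% interval 27.0 to 34.7%) lay mainly in the last exon of the opposite gene, with 5861 reads in replicate 1 and 3775 in replicate 2. Introns held 276 (48.0%, 43.8 to 52.2%), with 4293 and 2722 reads. A further 89 (15.5%) lay mostly beyond the ends of the opposite transcript, 19 in genes of 1 exon, 7 in first exons, 4 in internal exons, and 3 had no annotated gene on the other strand. Counted in bases, last exons held 21.5% of the bases of the loci and 4.04% of the bases of their opposite transcripts, whereas introns held 57.1% of locus bases and 93.0% of transcript bases. The 17095 single-exon loci below the minimum were distributed differently, with 8.18% (7.77 to 8.60%) in last exons and 75.7% (75.0 to 76.3%) in introns. The members were also longer, with a median of 1614 bases in last exons against 743 for loci below the minimum, and 2999.5 bases in introns against 1233. A span is that of the merged models, and a member needs models of both libraries, whereas 13197 of the loci below the minimum were in 1 library only. The lengths are therefore not compared on equal terms. Without replicate 2, from the 1373 loci of replicate 1, last exons held 21.9% and introns 59.7%, and without replicate 1, from 699 loci, 29.2% and 50.9%. The leading models of both libraries lay in the same class as the merged locus in 548 of the 575. All 11 spliced antisense loci lay in introns, with 227 reads in replicate 1 and 126 in replicate 2.

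**Figure D2:**
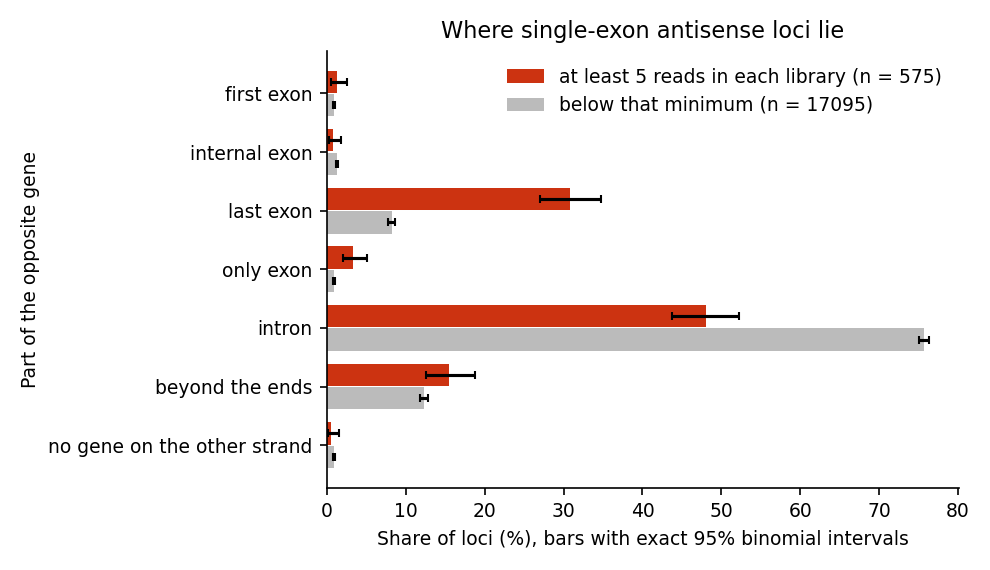
Share of loci (x axis, percent, with exact 95% binomial intervals) by the part of the opposite gene that holds most of the locus (y axis), for the 575 loci with at least 5 reads in each library and the 17095 below that minimum. Last exons held 30.8% of the members and 8.18% of the other loci, and introns 48.0% and 75.7%.

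In last exons the loci lay inside the gene rather than across its end. Of the 177, 158 lay wholly within a single exon, and 117 began more than 50 bases inside the 3′ end of the opposite reference transcript. Measured from that end, with negative distances inside the gene, the median position was -859 bases for the 5′ ends and -2622 bases for the 3′ ends, in exons with a median length of 3681 bases. In 43 loci the 5′ end fell on the very base where the opposite reference transcript ends, and in 9 it lay more than 50 bases past it. Counting the ends of all annotated transcripts on the opposite strand, 65 of the 177 loci began exactly on one. Over all members, 207 of 575 had a 5′ end and 199 a 3′ end at an annotated exon boundary, with no share of other loci to set beside these counts. What part the annotation had in setting those ends was not tested.

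**Figure D3:**
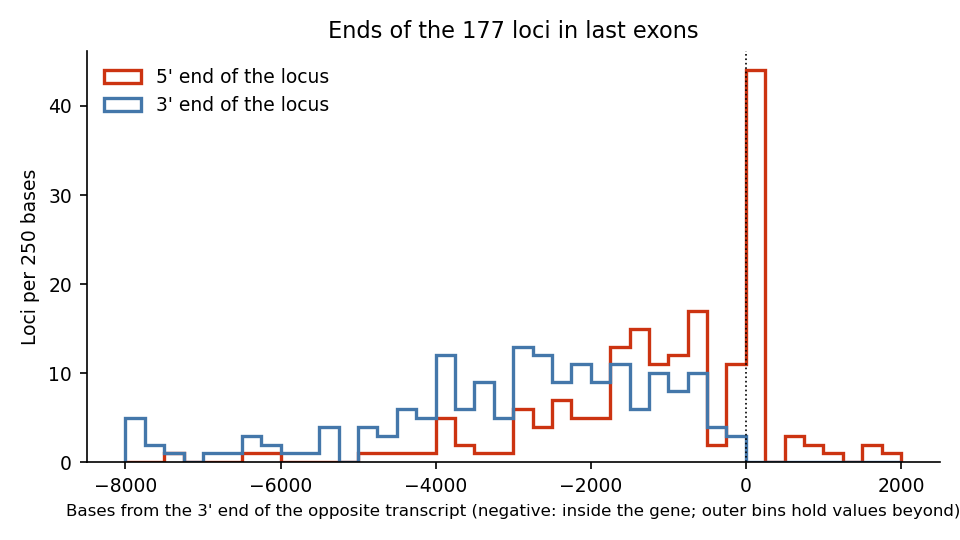
Number of the 177 last-exon loci per 250 bases (y axis) whose 5′ end (red) or 3′ end (blue) lies at a given distance from the 3′ end of the opposite transcript (x axis, bases, negative inside the gene). The red peak at 0 holds the 43 loci that start on the last base of the opposite transcript, while the 3′ ends spread over several kilobases inside the gene.

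Adenine-rich sequence followed many of the last-exon loci. Of the 177 last-exon loci, 164 (92.7%) had known bases after their 3′ end, and 90 of them (54.9%) had at least 60% adenine in the next 20 bases. Such windows made up 3.82% of all 654786 windows of that length in the 171 last exons, read on the strand of the loci. Where the 3′ end was not at an annotated boundary the share was 86 of 114 (75.4%), and where it was at one the share was 4 of 50 (8.00%). Adenine made up 62.0% of the bases at positions 1 to 20 after the end, 33.5% of bases 21 to 60 counted back into the locus and 36.7% of those 41 to 60 bases after it. The polyadenylation signals AATAAA or ATTAAA, searched on the locus strand only, stood in the last 40 bases of 14 of 168 last-exon loci (8.33%), against 6.14% of all 40-base windows of these exons. On the opposite strand, the first 40 bases of the locus held a signal in 59 of 170 (34.7%). Of the 177 loci, 43 start at the end of the opposite reference transcript and 65 at that of any annotated transcript of that strand. The 90 loci with adenine after them had a median of 24.5 summed reads and a span of 1237.5 bases, and the 74 without had 25.5 reads and 1675 bases. Whether the reads of these loci began at the adenine runs was not tested. Among the 19 loci opposite genes of 1 exon, 16 (84.2%) had known bases, and 8 of these had the same adenine share. In introns, first exons, internal exons and beyond the ends of the opposite transcript fewer than 80% of loci had known bases (30.8% in introns), so the check is void there.

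**Figure D4:**
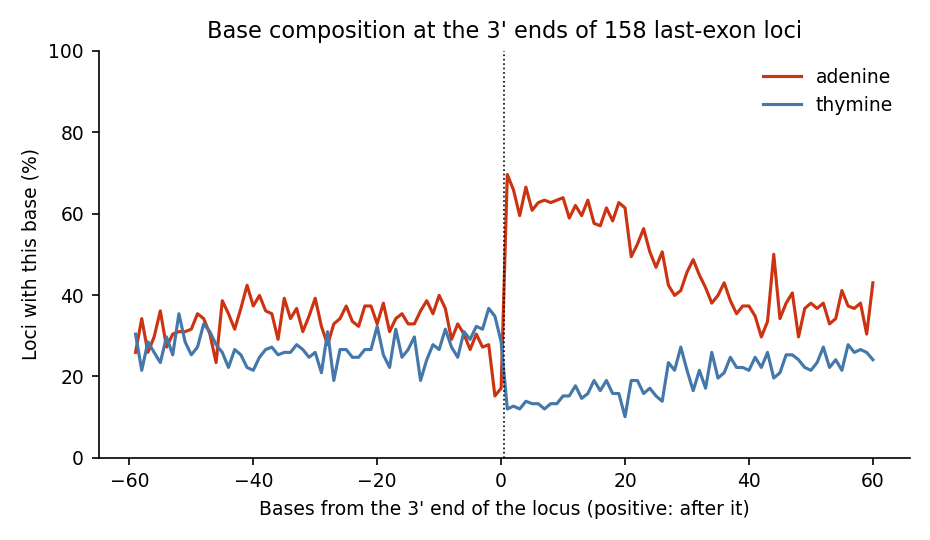
Share of 158 last-exon loci with adenine (red) or thymine (blue) at each base (y axis, percent) from 60 bases before to 60 after the 3′ end of the locus (x axis, bases, on the locus strand). Adenine made up 62.0% of bases 1 to 20 after the end, with thymine lowest there.

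The 3′ ends of the loci repeated between the libraries more closely than the 5′ ends. Between the leading models of the libraries, the 3′ end fell on the same base in 343 loci and within 50 bases in 440. The 5′ ends did so in 155 and 231 loci, with a median gap of 240 bases. Among last-exon loci with known bases, 74 of the 90 followed by adenine and 43 of the 74 others had 3′ ends within 50 bases.

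The locus with most reads in a last exon lay opposite Tmem250-ps, annotated as a long intergenic RNA, at chr2:26136814-26138383 on the + strand of mm10. It had 440 reads in replicate 1 and 267 in replicate 2, while the gene had 7 and 9. The antisense share of the reads, that is locus reads over locus plus gene reads, was 98.4% (95% interval 96.8 to 99.4%) in replicate 1 and 96.7% (93.9 to 98.5%) in replicate 2. Sept2, a septin of the cytoskeleton, was opposed by 322 and 226 reads, against 39 and 37 of its own. Nfia, a transcription factor of the nuclear factor I family, was opposed at chr4:98111270-98112813 by 233 and 239 reads, against 29 and 13 of the gene. A pair of further loci lay along Nfia, and the 3 loci together held 318 reads in replicate 1 and 315 in replicate 2. At the last exon of Cdv3 the locus had 286 and 166 reads, against 33 and 26 of the gene, and at that of Tacc1, a coiled-coil protein of the centrosome, 157 and 96, against 24 and 29. In each of these genes the antisense locus outnumbered the gene in both libraries.

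Smaller last-exon loci lay opposite Pitpnc1, a lipid transfer protein, with 27 reads in replicate 1 and 37 in replicate 2 against 8 and 11 of the gene, and opposite Slc39a1, a zinc importer, with 25 and 5 against 69 and 30. Plin1, the perilipin that coats fat droplets, was opposed by 76 and 97 reads, against 376 and 277 of its own. Here the gene outnumbered the locus, with an antisense share of 16.8% in replicate 1 and 25.9% in replicate 2.

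Loci beyond the ends of the opposite transcript lay mostly on its 3′ side. In 54 of the 89 the 5′ end lay past the opposite 3′ end, 32 lay wholly past it and 18 wholly before the opposite 5′ end. These positions are those of the merged locus: in 78 of the 89 the leading model reached past an end in both libraries. The deepest of them, at chr5:142901396-142903654 on the + strand, lay at the 3′ end of Actb, the beta-actin gene. Its model in replicate 1 crossed that end, whereas its model in replicate 2 was 421 bases long and lay wholly inside Actb. The locus had 568 reads in replicate 1 and 236 in replicate 2, against 1199 and 823 of Actb, and its log2 ratio of replicate 1 over replicate 2 was 1.09 (SE 0.11) beside 0.37 for the gene (adjusted p = 1.55e-07, exact conditional binomial test). With scaling by ERCC spike-ins the ratio was 0.51 for the locus and turned to -0.22 for the gene. Next came the locus over 2900097C17Rik, a long intergenic RNA, with 216 and 121 reads against 51 and 45. The locus at the 3′ end of Kcnk3, which encodes a background potassium channel of adrenal cortex cells, lay at chr5:30621891-30629361 on the - strand. Its class rests on few reads, since 197 of the 199 in replicate 1 and all 86 in replicate 2 were on models wholly inside the gene. The locus reads stood against 2189 and 1170 of the channel gene, an antisense share of 8.33% in replicate 1 and 6.85% in replicate 2. Sdc4, a heparan sulfate proteoglycan of the cell surface, was opposed by 105 reads in replicate 1 and 168 in replicate 2, while the gene had 5 and 26, and its leading model lay inside the gene in replicate 1 and crossed the 3′ end in replicate 2.

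Loci in introns were numerous and shallow, with a median of 20 summed reads and at most 142. Of the 276, 158 lay wholly in an intron and 118 also covered exonic bases. In 137 of them (49.6%) the first intron held more of the locus than any other intron. First introns make up 31.4% of the intron bases of the opposite transcripts. The locus with most reads lay opposite Ptp4a1, a tyrosine phosphatase, with 96 reads in replicate 1 and 46 in replicate 2 against 480 and 453 of the gene. Introns held 81.38% of its bases, the first intron more than any other. Next was a locus wholly inside the first intron of Nampt, the enzyme that starts NAD salvage, at chr12:32821872-32824161 on the - strand. This span was read in replicate 1, while the reads of replicate 2 were on a model of 1 base at its 3′ end. The locus had 57 and 53 reads, against 86 and 97 of Nampt, and no read of the other strand had an exon over it. The third lay opposite Zkscan3, a zinc finger factor, with 56 and 48 reads against 66 and 36. Introns held 90.83% of its bases, again the first intron more than any other.

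First and internal exons held few loci. Dhrs3, a retinaldehyde reductase, had 100 reads in replicate 1 and 70 in replicate 2 over 143 bases of its first exon, against 48 and 80 of its own. The gene itself was lower in replicate 1, at a log2 ratio of -0.90 (adjusted p = 0.00325, exact conditional binomial test), while the locus ratio was 0.34 (SE 0.22), which turned to -0.25 with scaling by ERCC spike-ins. The first exon of Smad7, an inhibitor of TGF-beta signalling, was opposed by 27 and 21 reads against 12 and 8, and that of BC005537 by 23 and 12 against 33 and 25. In internal exons, the Ptp4a2 locus had 188 and 79 reads against 262 and 178 of this phosphatase gene. The locus opposite Matr3, a protein of the nuclear matrix, had 30 and 9 reads against 116 and 104, and that opposite Brd2, a bromodomain protein that binds acetylated histones, 12 and 11 against 150 and 62.

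Genes of 1 exon were opposed by the deepest locus of all, at chr17:39843013-39846341 on the - strand, over the whole of Gm26917. It had 1269 reads in replicate 1 and 1018 in replicate 2, against 93 and 60 of Gm26917. Beside it a locus of 87 and 69 reads lay opposite the annotated rRNA gene CT010467.1, which had none in either library, and over an exon of Gm42418 on its own strand. rRNA-like sequence has many near-identical copies, so the placement of these reads is uncertain. Malat1, an abundant nuclear long noncoding RNA, was opposed at chr19:5796952-5799085 by 113 and 52 reads, against 62 and 28 of its own. Neat1, the scaffold RNA of paraspeckles, was opposed by 3 loci with 93 reads in replicate 1 and 19 in replicate 2 in all, against 235 and 113. The 3 loci with no annotated gene on the other strand were shallow. A locus of 60 and 17 reads at chr13:55184919-55189155 on the + strand faced another of 13 and 5 reads at chr13:55184770-55188584 on the - strand, and the third lay at chr3:21956153-21958713 with 6 and 7.

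Some genes of steroid synthesis and its control, the main task of the adrenal cortex, had antisense loci at a small fraction of their own reads. Low shares are not particular to them. Over all genes with a member, the median share was 6.42% at 200 to 999 summed gene reads and 1.91% at 1000 or more. Of 17 cortex genes on the marker list, 5 were opposed by 6 members, where a member was found opposite 523 of all 17515 genes with reads (2.99%) and opposite 8.42% of those with 1000 or more. Star, which carries cholesterol into mitochondria, had 40 antisense reads in replicate 1 and 11 in replicate 2, against 6374 and 2232 of its own, an antisense share of 0.624% and 0.490%. Fdx1, the ferredoxin that passes electrons to mitochondrial P450 enzymes, had a locus across its 3′ end with 47 and 12 reads and another in its second intron with 36 and 11, against 1648 and 536 of the gene. Mrap, the accessory protein of the ACTH receptor, had 31 and 10 antisense reads within its first intron, against 653 and 248. Scarb1, the receptor that takes up HDL cholesterol, had 21 and 10 against 1566 and 461, and Nr5a1, the steroidogenic factor that drives these genes, 14 and 9 against 541 and 237. All 5 genes passed the test as higher in replicate 1, with log2 ratios between 1.02 for Nr5a1 and 1.59 for Scarb1, and all 6 loci had ratios above 0, between 0.44 (SE 0.60) opposite Nr5a1, which turned to -0.15 with ERCC scaling, and 1.76 (SE 0.46) across the end of Fdx1. The 5 genes and the other loci stayed above 0 with ERCC and TMM scaling. Of all 9211 genes tested, 17.9% were higher in replicate 1. Ratios above 0 were common among members, at 442 of all 575 (233 with ERCC scaling). In bulk tissue, fewer cells of a type and less RNA per cell cannot be told apart. Of the other lists only the adipocyte list held an opposed gene, Plin1, and none of 10 chromaffin, 12 hepatocyte, 7 muscle, 5 erythroid, 6 endothelial, 5 leukocyte and 4 fibroblast genes was opposite a member. With lists this short, nothing is read from these counts.

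Across all members the antisense share had a median of 25.9% in replicate 1 and 23.8% in replicate 2 (SD of the libraries 1.5, n = 2). The locus had more reads than the opposite gene in both libraries in 140 cases and fewer in both in 371. The gene was listed at 0 reads in 23 cases in replicate 1 and 25 in replicate 2. Over the locus itself, counting reads of the other strand with an exon on it, the median share was 63.6%, at 41.2% in last exons and 83.3% in introns, and the locus had more reads than that strand in both libraries in 309 cases. Among members, reads of the locus and of its gene were hardly related, at a Spearman correlation of 0.05. The Pearson correlation was 0.08 on the log scale over the same 555 loci, which share the libraries and the minimum on locus reads. That minimum leaves out shallow loci, so these values do not describe antisense loci in general. Loci of any depth lay opposite 23.3% of the genes with 1 to 9 summed reads and 53.6% with 10 to 49. They lay opposite 57.4% with 50 to 199, 61.6% with 200 to 999 and 57.1% with 1000 or more. A member was found opposite 0.804% of the genes with 1 to 9 summed reads, 3.42% with 10 to 49, 4.37% with 50 to 199, 5.97% with 200 to 999 and 8.42% with 1000 or more. The median share of the members was lower over more abundant genes, at 83.3% over genes with 1 to 9 reads, 52.0% with 10 to 49, 18.9% with 50 to 199, 6.42% with 200 to 999 and 1.91% with 1000 or more. The minimum on locus reads is the same in every bin, and every member has at least 10 summed reads. Over genes with 1 to 9 reads a member therefore always outnumbers its gene. The bins are also cut on gene reads, which enter the share, so part of this fall is set by the rule. All antisense reads of any locus, members or not, made up 24.4% of the reads of both strands in the lowest of these bins and 0.365% in the highest.

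**Figure D5:**
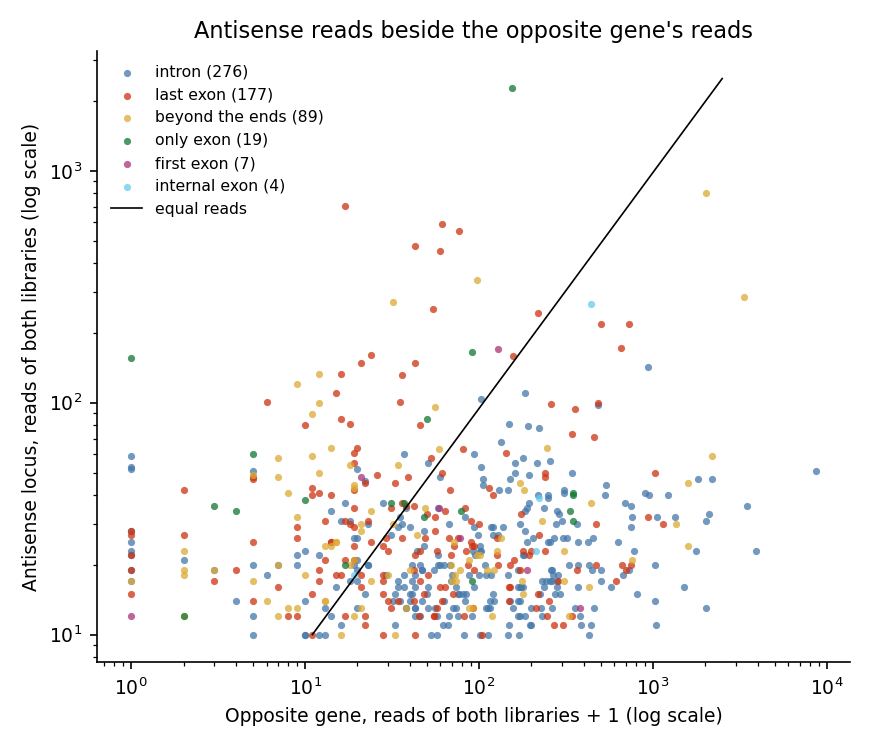
Summed reads of both libraries at each antisense locus (y axis, log scale) against summed reads of its opposite gene plus 1 (x axis, log scale), coloured by position, with a line at equal reads. Points scatter on both sides of the line with no visible trend, and the points above it include the loci opposite Tmem250-ps, Sept2, Nfia and Cdv3.

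The opposite genes differed between the libraries about as often as genes in general. Of the 540 distinct opposite genes, 399 had at least 20 summed reads and were tested, and 109 of them (27.3%) passed, beside 26.4% of all 9211 genes tested. In replicate 1, 93 were higher (23.3%, beside 17.9% of all genes tested) and 16 were lower (4.01%, beside 8.58%). The median log2 ratio was 0.29 for the opposite genes and 0.28 for all genes tested, and 0.45 for the 575 loci, of which 442 were above 0 (233 with ERCC scaling). Directions depended on the scaling: relative to the ERCC spike-ins, 13 opposite genes were higher and 78 lower in replicate 1, and the median of all genes moved to -0.31. With TMM scaling, 45 were higher and 28 lower.

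Few loci differed by more than 4-fold between the libraries, with 5 above and 2 below in replicate 1. With scaling by ERCC spike-ins or by TMM, 1 was above and 2 were below. Srxn1, which repairs oxidised peroxiredoxins, had 44 antisense reads in replicate 1 and 6 in replicate 2, a log2 ratio of 2.60 (SE 0.61) that stayed above 4-fold at 2.02 with ERCC and 2.36 with TMM scaling, and the gene had 260 and 83 (1.47, adjusted p = 8.8e-17, exact conditional binomial test). The Neat1 locus at chr19:5826301-5829772 had 26 and 5 reads (2.10, SE 0.68, and 1.51 with ERCC scaling) and the gene 0.88 (adjusted p = 6.07e-07). The locus at the 3′ end of Pus7l, a pseudouridine synthase homologue, had 53 and 11 reads (2.05, SE 0.47, and 1.46 with ERCC scaling) against 7 and 6 of the gene, which was too low to test. In the other direction, the locus at Acnat1, an acyltransferase, lay past the 3′ end of the reference transcript, with 99.97% of its bases beyond it. The locus had 8 reads in replicate 1 and 125 in replicate 2, against 1 and 10 of the gene, and its ratio was -4.06 (SE 0.51). The first intron of Selenop, the plasma carrier of selenium, had 5 and 28 antisense reads (-2.54, SE 0.67), and the gene had 276 and 1824 reads (-2.89, adjusted p = 2.13e-318). Hepatocyte genes were lower in replicate 1 likewise, at 756 CPM against 81784 CPM in replicate 2, and their part in both loci was not tested. Over 246 loci with enough reads on both strands, locus and gene ratios had a Pearson correlation of 0.42 and a Spearman correlation of 0.27, and 175 lay on the same side of 0. These points share both libraries and their scaling.

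A same-strand annotated transcript ended within 5000 bases upstream of 83 members (14.4%) and of 1480 of the 17095 loci below the minimum (8.66%). The start of the opposite gene lay within 1000 bases of the 5′ end of 19 members (3.30%) and of 834 of those other loci (4.88%). On their own strand 19 members (3.30%) touched an annotated exon, Cyp11b1 and Plin4 among those genes, as did 224 of the other loci (1.31%). Protein-coding genes were opposite 545 of the 572 members with a gene (95.3%), beside 95.9% of the other loci, and long intergenic RNAs opposite 16 (2.80%), beside 1.61%. For scale, 66 of the 2913 genes annotated as antisense on these chromosomes had at least 5 reads in each library, with 1399 reads in replicate 1 and 778 in replicate 2 over those 66. The median summed reads were 22 for the members and 20.5 for these annotated antisense genes. Both sets were kept by the same minimum of 5 reads in each library, so these medians are partly set by it.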

How the data were processed

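RNA of adrenal gland was read as full-length cDNA in 2 libraries. Per the file headers, the authors deposited for each library the count of reads on every model listed by TALON, and a transcript annotation on mm10 built on GENCODE M21. The counts are whole reads, neither pooled nor scaled. Aligner, TALON version and read filters: not given in the sources used here. Coordinates and strands of the models were used as deposited, per the file headers.

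Single-exon Antisense models were merged at 1 shared base on a strand over both libraries and kept with at least 5 reads in each. The opposite gene was the annotated gene on the other strand with most overlapping bases. Gene spans were taken from the annotated transcripts, because 16240 of 55632 deposited gene lines (29.2%) did not match them. The reference transcript was the annotated one with most reads of Known models, and a locus took the class of the transcript part that held most of its bases. The members, the gene lists and the rule for the loci named in the text were chosen with earlier results of these data known. The rule takes the 12 loci with most reads, the 3 with most in each class, the 5 highest antisense shares over genes with at least 20 reads, the 4 highest and the 4 lowest ratios of the libraries among loci with at least 30 reads, and every locus opposite a gene of the 9 marker lists. A locus that the rule takes is not reported here.

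Each annotated gene with 20 or more summed reads was tested for a difference of the libraries with a two-sided exact conditional binomial test, conditioned on the library totals of reads in annotated genes, with Benjamini-Hochberg adjustment at 0.05. It compares the reads of these libraries, not conditions, and was tested on simulated data. Log2 ratios are replicate 1 over replicate 2 of CPM, counts scaled to those totals, after adding 0.5 reads. The SE of a ratio reflects counting error. Shares have exact Clopper-Pearson 95% intervals. Reads carry no molecular identifiers and are not independent molecules, so intervals and tests cover counting error only. The alternatives were other minimums, merging, transcripts, scalings (edgeR 4.0.16 TMM, DESeq2 1.42.0 size factors), windows and single libraries. No genome was used here: bases came from GENCODE M21 transcripts and RefSeq promoter windows (GRCm38.p6), in place of the genome the sequence check was planned on, so that check was limited to last exons and genes of 1 exon, where at least 80% of loci had their bases. Python 3.11.15, scipy 1.17.1 and R 4.3.3 were used.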

Additional observations from a re-analysis of the deposited data

Results flagged for a closer look

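Spike-in RNAs, whose strand played no part in the comparisons above, were read on the other strand than annotated in a few cases. In all, 4 of the ERCC controls, all annotated on the + strand, were read on the other strand alone, with 207 reads in replicate 1 and 129 in replicate 2. ERCC-00009 accounted for 148 and 101 of these reads and ERCC-00116 for 50 and 24. Among the 55 controls with reads on the annotated strand in replicate 1, 1 of 26895 reads was on the other strand, and among the 47 in replicate 2, 0 of 15903, where 3 counts would be 0.0189% and the exact 95% upper bound is 0.0232%. Reads on the other strand were therefore concentrated in those 4 controls in both libraries, and how their strand was set was not tested.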

How the results depend on the processing

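The number and the makeup of the loci moved with the read minimum. With a minimum of 3 reads there were 1108 loci, 24.0% in last exons and 57.7% in introns, with a median antisense share of 18.4%. With a minimum of 10 there were 213, 35.2% in last exons and 38.0% in introns, with a median share of 46.8%. From 1 library alone, the number of loci ranged from 699 without replicate 1 to 1373 without replicate 2. The last-exon share ranged from 21.9 to 29.2%, the intron share from 50.9 to 59.7% and the first-exon share from 0.801 to 1.43%. The median antisense share ranged from 20.0 to 21.6%. The 177 last-exon members were also scored at the 3′ ends of 1 library. Adenine followed 92 of the 168 with known bases in replicate 1 and 94 of 169 in replicate 2. Counting Known models of the opposite gene only raised the median antisense share to 41.0%, since fewer gene reads enter it. In all, 45 recomputed values stayed within the limits set for them and 14 moved. Last exons held between 30.2 and 34.4% of the loci under other merging, transcripts and length limits, and between 73 and 110 opposite genes passed the test under other scalings and filters. Without 3′ ends at an annotated boundary, 86 last-exon loci were followed by adenine. No paired analysis was possible because the libraries form a single group. Depth is the main limit: the median member rests on 13 reads in replicate 1 and 8 in replicate 2, so the antisense share of a single shallow locus is imprecise. With 1 library per tissue sample no spread between animals can be given, and the strand of single-exon reads could not be checked against splice sites. By the leading model of a single library in place of the merged locus, last exons held 30.6% (replicate 1) and 31.5% (replicate 2) and introns 48.2% in both. These classes, the limit on loci under 100 bases, DESeq2 scaling, the boundary limit and the single-library ends were chosen after seeing the data.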
